A study of Mus musculus with 126 samples.

Results

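The genes of 10 secreted or cell-surface products were followed in single epithelial cells of the mouse endolymphatic sac. They were Agt, Klk10, Prss56, Pla2g7, Dmkn, Lypd2, Spp1, Mmp23, Fam132a and Lgals3, 10 of the 48490 gene identifiers of the expression table, and all 10 were found by symbol. They had been chosen by name, with their levels by genotype and cell class in these same cells already known, so all values below describe these cells and support nothing beyond them. In wild-type cells the set divided by cell class. Klk10, Spp1 and Dmkn were higher where the retinaldehyde dehydrogenase gene Aldh1a1 was dominant, and Lypd2, Fam132a, Prss56 and Lgals3 were higher where Aldh1a3 was dominant. For Spp1 and Dmkn the log of the mean gave the same direction as the mean of the logs, but a difference under 1 in log2 units. In cells labelled Sox9 Y440X/+, Agt, Pla2g7 and Klk10 were lower in both classes, Prss56 and Mmp23 were lower mainly among Aldh1a3-dominant cells, and Spp1 stood near its wild-type level over all Epcam cells, those with the epithelial gene Epcam, and among Aldh1a1-dominant ones.

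The endolymphatic sac is a blind epithelial pouch of the inner ear that takes part in the control of endolymph, the potassium-rich fluid of the inner ear, and its epithelium secretes proteins into the lumen. SOX9 is a transcription factor of the SOXE group, active in the developing inner ear and in many secretory and cartilage-forming tissues. Proteins leave such cells through the endoplasmic reticulum and Golgi, and many proteases, hydrolases and adhesive phosphoproteins act only after they reach the surface or the lumen. The study title concerns how SOX9 and SOX10 control inner ear fluid.

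The 126 cells came from endolymphatic sacs at E14.5, the age in embryonic days, 33 of them labelled wild type and 93 labelled heterozygous for the Sox9 Y440X allele. The labels give no treatment, animal, litter, sex or plate, and no strain. The RNA of each cell was copied by Smart-seq2, a full-length protocol for 1 cell per well without molecular identifiers. Values are FPKM, fragment counts corrected for transcript length and for the cell's mapped total, so levels can be set side by side between genes. Genes under 1 FPKM are described as not detected, since a transcript can also fail to be captured. Because no animal is named, a genotype is 1 sample made of many cells. No test between genotypes is possible, and no p-value is given.

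Epcam, an epithelial adhesion gene, was at 1 FPKM or more in 32 wild-type and 81 mutant cells. No cell lay near that threshold, since the lowest value inside was 92.6 FPKM in wild type and 53.1 FPKM in the mutant and all cells outside were at 0. Of these Epcam cells, 14 wild-type and 41 mutant cells were Aldh1a1-dominant, 16 and 35 were Aldh1a3-dominant, and 2 and 5 had neither gene. Both genes were detected in 16 Epcam cells, where the smallest ratio between them was 1.39, and 5 of the 16 were under 4-fold. All Epcam cells had 3 or more of 19 epithelial markers. The number of genes listed above 0 had a median of 5244 in wild-type and 4453 in mutant Epcam cells, and sequencing depth itself is unknown. Mitochondria-rich cell markers, 3 or more of 10, were found in 3 wild-type and 9 mutant Epcam cells, of which 3 and 7 were Aldh1a1-dominant. No Epcam cell had 3 or more of 15 macrophage and other immune markers, although Spp1 and Lgals3 are also known from macrophages. Summed cartilage-type markers, some of which are known SOX9 targets, had a median of 185 FPKM (11.6 to 774) in wild-type and 43.6 FPKM (0 to 447) in mutant Epcam cells. Their part in the results was not tested.

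Some labels are in doubt. All 81 mutant Epcam cells have titles that begin with P9, and 31 of 32 wild-type ones begin with P10. Of the wild-type Epcam cells 31 had a Y-linked gene and 0 had Xist, and of the mutant ones 4 and 71. Genotype, sex-linked expression and title prefix therefore cannot be told apart. In the 4 Y-linked cells labelled mutant Xist was undetected, and they held 2, 8, 8 and 10 of the 10 genes. In that order they had 4849, 4973, 8246 and 9358 listed genes, where wild-type Epcam cells had at most 6493. Leaving the 4 cells out moved the relative differences by at most 0.39 on the log2 scale. Values without them stand beside the results that they moved most.

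Promoters are shown for the 3 genes with the lowest relative genotype difference in Aldh1a3-dominant cells. The windows are the 250 bases before the transcription start in RefSeq, build GRCm38.p6, written 5′ to 3′ along the gene. Agt lies on the minus strand (chr8:124569707-124569956), Prss56 on the plus strand (chr1:87183064-87183313) and Mmp23 on the minus strand (chr4:155653385-155653634). Capitals mark the SOX core searched, AACAAT or ACAATG on either strand.
Agt: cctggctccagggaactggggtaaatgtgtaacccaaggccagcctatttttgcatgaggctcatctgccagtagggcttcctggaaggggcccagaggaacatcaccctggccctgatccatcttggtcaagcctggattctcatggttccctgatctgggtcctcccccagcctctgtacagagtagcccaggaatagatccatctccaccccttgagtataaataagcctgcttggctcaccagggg
Prss56: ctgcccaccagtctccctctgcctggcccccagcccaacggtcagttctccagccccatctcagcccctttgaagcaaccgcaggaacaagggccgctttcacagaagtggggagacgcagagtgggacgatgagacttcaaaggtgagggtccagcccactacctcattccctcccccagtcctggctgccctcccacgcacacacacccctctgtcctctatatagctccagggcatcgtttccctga
Mmp23: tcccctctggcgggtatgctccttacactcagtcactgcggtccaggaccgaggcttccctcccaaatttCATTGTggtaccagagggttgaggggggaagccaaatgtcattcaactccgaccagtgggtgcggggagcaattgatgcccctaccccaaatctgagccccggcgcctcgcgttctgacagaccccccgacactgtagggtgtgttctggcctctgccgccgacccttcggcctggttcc
The SOX core was found in 1 of the 8 genes shown or searched, as CATTGT at position -180 of Mmp23, and in 16.2% of 32817 RefSeq promoters, searched over the same 250 bases. The letters CTTTGAT or CTTTGAA on either strand, the core of TCF and LEF factors, were found in Prss56 alone of the 8, in 2 places, against 7.48% of all promoters. For each gene 1 window was searched, that of the RefSeq start nearest the gene's 5′ end. That start lay 6109 bases from the 5′ end for Lgals3 and 353 for Pla2g7. Other starts of a gene were not searched. A match is a description of letters only. Promoters of Lypd2 and Fam132a were not used here.

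Among the proteins acting on peptides, Agt encodes angiotensinogen, the secreted precursor of the angiotensins (chromosome 8, 124556534 to 124569706, minus strand, mm10, as are all gene positions here). In wild-type Epcam cells its FPKM ranged from 0 to 800 with a median of 212, and in mutant cells from 0 to 287 with a median of 0. In wild type 27 of 32 cells had it (84.4%, exact binomial 95% interval 67.2 to 94.7%), and in the mutant 34 of 81 (42%, 31.1 to 53.5%). Such intervals cover counting error over cells, not the spread between animals. The ranges overlapped, but in 83.1% of pairs of 1 wild-type and 1 mutant cell the wild-type cell was higher, ties counted equally to both sides. The mean log2(FPKM + 1) was 6.53 ± 3.05 (SD over cells) in wild type and 2.52 ± 3.11 in the mutant. Differences are given relative to the median difference over all compared genes, which was -0.26 on the log2 scale in Epcam cells, and that relative difference of Agt was -3.76, or -3.90 without the 4 doubtful cells. Among cells that had Agt, the median was 235 FPKM in wild type and 65.6 FPKM in the mutant, so both the share of cells and the level within them were lower.

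Mutant cells differed by class for Agt. Among Aldh1a1-dominant cells, 13 of 14 in wild type (92.9%, 66.1 to 99.8%) and 23 of 41 in the mutant (56.1%, 39.7 to 71.5%) had it, with median FPKM of 277 and 34.3. Among Aldh1a3-dominant cells, 13 of 16 in wild type (81.2%, 54.4 to 96.0%) and 7 of 35 in the mutant (20%, 8.44 to 36.9%) did, with median FPKM of 183 and 0. The relative genotype differences were -3.74 and -4.60. Without the 4 doubtful cells they were -3.73 and -4.93. The angiotensin receptor gene Agtr1a was detected in 1 wild-type and 1 mutant Epcam cell, and Agtr2 in 1 wild-type cell. Ren1 and Enpep were detected in no Epcam cell, and Ace in 1 mutant cell.

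Klk10 encodes a secreted serine protease of the kallikrein family (chromosome 7, 43781035 to 43785410, plus strand). Its FPKM in wild-type Epcam cells ranged from 0 to 1741 with a median of 132, and in mutant cells from 0 to 760 with a median of 11.7. It was detected in 65.6% (46.8 to 81.4%) and 50.6% (39.3 to 61.9%) of them. In Aldh1a1-dominant cells the shares were close, 12 of 14 and 31 of 41, while the median among cells that had Klk10 was 760 FPKM in wild type and 119 FPKM in the mutant. In Aldh1a3-dominant cells it was detected in 7 of 16 and 6 of 35, with medians among those cells of 127 and 85.4 FPKM. The relative genotype difference was -1.85 over Epcam cells, -2.41 in Aldh1a1-dominant and -1.72 in Aldh1a3-dominant cells, the class values being -2.30 and -1.80 without the doubtful cells. A non-coding gene on the opposite strand, 2310002F09Rik, overlaps Klk10 without sharing exon bases, and whether the counting used strand is not given in the sources used here.

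Prss56 encodes a trypsin-like serine protease known for its role in eye size (chromosome 1, 87183313 to 87188405, plus strand). In wild type it marked the Aldh1a3-dominant cells. There it was detected in 15 of 16 cells (93.8%, 69.8 to 99.8%), from 0 to 1217 FPKM with a median of 226. In wild-type Aldh1a1-dominant cells it was found in 8 of 14, from 0 to 178 FPKM with a median of 8.2. In the mutant it was detected in 8 of 35 Aldh1a3-dominant cells (22.9%, 10.4 to 40.1%), from 0 to 559 FPKM, and in 16 of 41 Aldh1a1-dominant cells (39%, 24.2 to 55.5%), from 0 to 288 FPKM. Both mutant medians were 0. The relative genotype difference was -5.33 in Aldh1a3-dominant cells and -0.22 in Aldh1a1-dominant cells. Without the 4 doubtful cells, 2 of which are Aldh1a3-dominant and had Prss56, the first was -5.64. The 8 mutant Aldh1a3-dominant cells that had Prss56 held a median of 195 FPKM, against 288 FPKM in the 15 wild-type ones.

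Mmp23 encodes a membrane-anchored matrix metalloproteinase that is released by cleavage (chromosome 4, 155650655 to 155653384, minus strand). Like Prss56, it was lower in the mutant mainly among Aldh1a3-dominant cells. Unlike Prss56, it did not mark that class in wild type, where its relative difference between classes was 0.06. Among Aldh1a3-dominant cells 16 of 16 had it in wild type (79.4 to 100%), from 33.4 to 1251 FPKM, and 18 of 35 in the mutant (51.4%, 34 to 68.6%), from 0 to 784 FPKM. Medians were 415 and 8.45 FPKM. In Aldh1a1-dominant cells it was found in 12 of 14 cells of wild type and 36 of 41 of the mutant, with medians of 755 and 402 FPKM. The relative difference was -4.03 in the first class and -0.29 in the second, or -4.20 and -0.08 without the doubtful cells. Over Epcam cells it was -2.03, but -0.73 with log2 of the mean FPKM plus 1. In the second class the wild-type cell was higher in 70.6% of pairs, and the mean FPKM was 809 in wild type and 518 in the mutant.

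**Figure D1:**
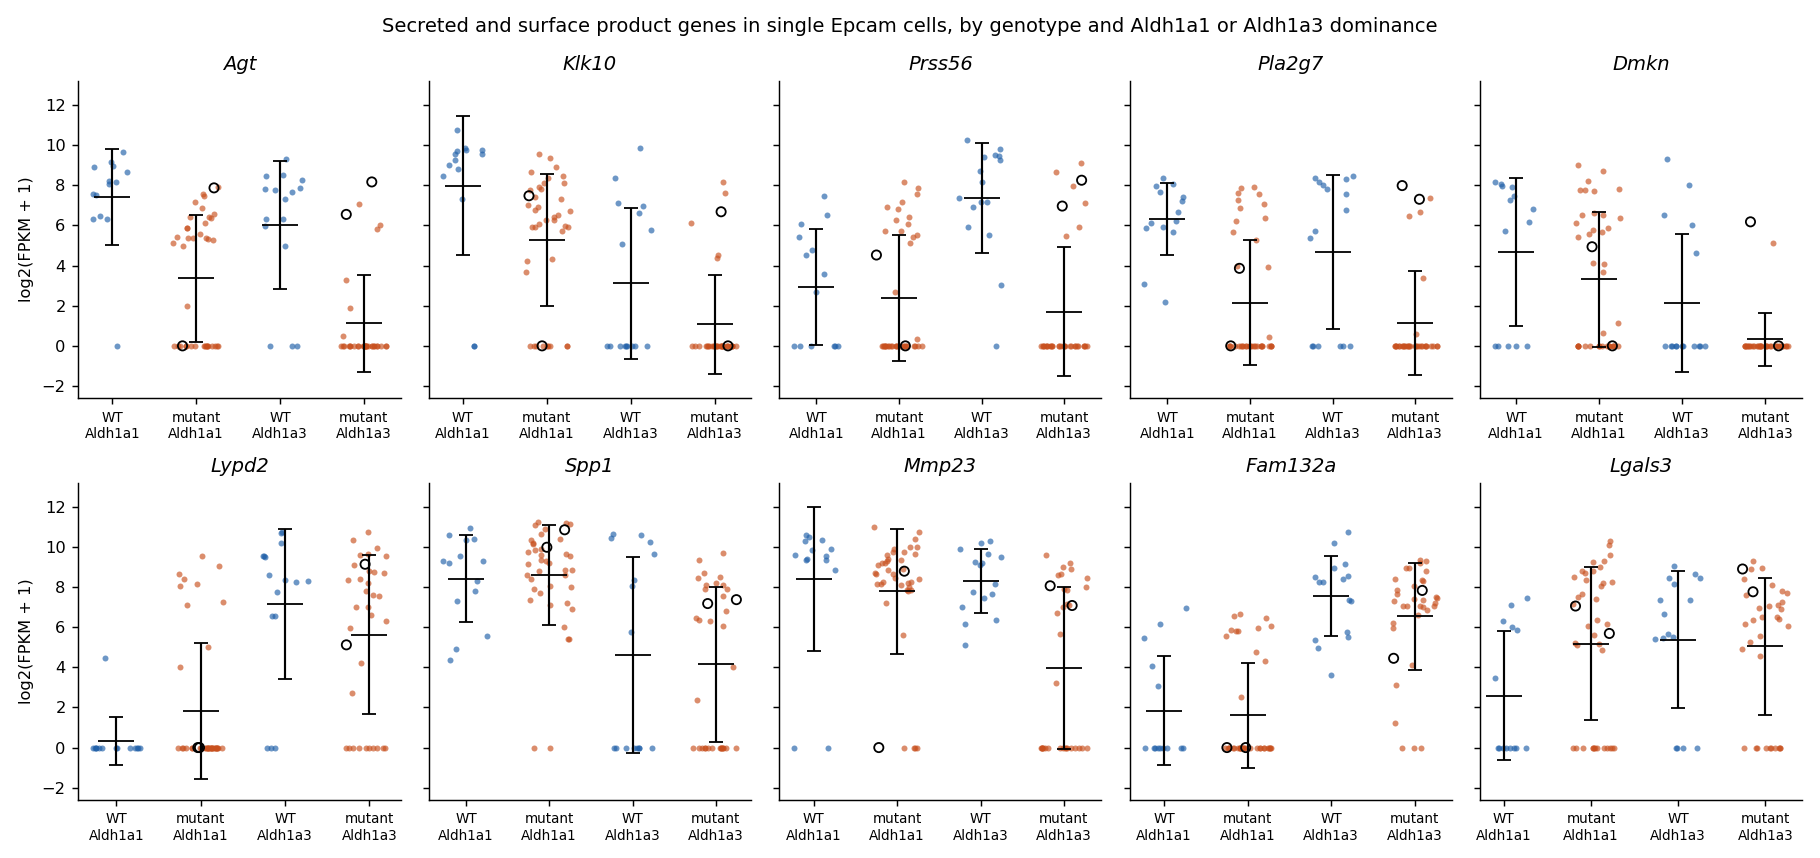
Each point is 1 Epcam cell, with log2(FPKM + 1) on the vertical axis, wild type (WT) in blue and Sox9 Y440X/+ in orange, split by the dominant Aldh1a gene; black bars are the mean and SD over cells, and open rings are the 4 cells labelled mutant that carry Y-linked transcripts. Prss56 and Mmp23 sit high in nearly all 16 wild-type Aldh1a3-dominant cells and at 0 in many of the 35 mutant ones.

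Pla2g7 encodes the secreted platelet-activating factor acetylhydrolase, which cleaves that phospholipid mediator and oxidised phospholipids (chromosome 17, 43568098 to 43612201, plus strand). Over Epcam cells its FPKM ranged from 0 to 350 with a median of 87.4 in wild type, and from 0 to 253 with a median of 0 in the mutant. In wild type it was detected in 14 of 14 Aldh1a1-dominant cells (76.8 to 100%) and 10 of 16 Aldh1a3-dominant cells (62.5%, 35.4 to 84.8%). In the mutant it was detected in 14 of 41 (34.1%, 20.1 to 50.6%) and 6 of 35 (17.1%, 6.56 to 33.6%). The relative genotype difference was -3.86 and -3.20 in these classes, or -3.81 and -3.55 without the doubtful cells. Aldh1a1-dominant cells that had Pla2g7 held a median of 87.4 FPKM in wild type and 99.6 FPKM in the mutant, so in that class the share of cells was lower in the mutant and the level within detecting cells was not. Among cells with 3000 to 5000 listed genes the relative difference over Epcam cells was -1.98 in place of -3.19. An antisense gene that shares exon bases, 1700071M16Rik, was detected in 0 wild-type and 1 mutant Epcam cells.

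Spp1 encodes osteopontin, a secreted phosphoprotein that binds integrins and calcium (chromosome 5, 104435118 to 104441050, plus strand). Its FPKM ranged from 0 to 2835 with a median of 323 in wild-type and from 0 to 2648 with a median of 267 in mutant Epcam cells. It was detected in 24 of 32 (75%, 56.6 to 88.5%) and 63 of 81 (77.8%, 67.2 to 86.3%). In Aldh1a1-dominant cells nearly all had it, 14 of 14 in wild type, from 19.4 to 1995 FPKM, and 39 of 41 in the mutant, from 0 to 2424 FPKM, with medians of 604 and 589 FPKM. In Aldh1a3-dominant cells it was detected in 8 of 16 and 20 of 35. There the wild-type cells that had it held a median of 1004 FPKM and the mutant ones 214 FPKM. Relative to all compared genes Spp1 differed by 0.23 over Epcam cells, by 0.50 in Aldh1a1-dominant and by -0.13 in Aldh1a3-dominant cells. In the last class the mean FPKM was 449 in wild type and 139 in the mutant, and with log2 of the mean FPKM plus 1 the difference was -1.62. A gene on the same strand that shares exon bases with Spp1, Gm42793, was detected in 2 wild-type and 2 mutant Epcam cells.

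Dmkn encodes dermokine, a secreted protein best known from stratified epithelia such as the epidermis (chromosome 7, 30763756 to 30781063, plus strand). Aldh1a1-dominant cells with Dmkn numbered 9 of 14 in wild type and 22 of 41 in the mutant, with median FPKM of 91.7 and 11.9. In Aldh1a3-dominant cells it was detected in 5 of 16 (31.2%, 11 to 58.7%) and 2 of 35 (5.71%, 0.700 to 19.2%). The highest value was 643 FPKM in a wild-type cell of that class. The relative genotype difference was -1.04 in Aldh1a1-dominant cells, or -0.97 without the doubtful cells, and -1.51 in Aldh1a3-dominant cells, where Dmkn was too scarce to be compared. Over Epcam cells it was -1.03, just inside the size of 1 used here, and 11 of 15 alternative settings kept it at 1 or more below. Without the 1 wild-type cell whose title begins with P9 it was -0.92.

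Lgals3 encodes galectin-3, a sugar-binding lectin that is exported without a signal peptide and also stays inside cells (chromosome 14, 47367751 to 47386160, plus strand). It was the only one of the 10 that was higher in the mutant by 1 or more over Epcam cells, with a relative difference of 1.56. The difference sat in Aldh1a1-dominant cells. There 6 of 14 cells had it in wild type (42.9%, 17.7 to 71.1%), from 0 to 177 FPKM, and 28 of 41 in the mutant (68.3%, 51.9 to 81.9%), from 0 to 1271 FPKM. Medians were 0 and 71.7 FPKM, and the relative difference was 2.90. In Aldh1a3-dominant cells it was detected in 12 of 16 and 25 of 35, with medians of 74.7 and 82.8 FPKM and a relative difference of -0.00, or -0.15 without the doubtful cells. Among Epcam cells with 3000 to 5000 listed genes, 12 wild-type and 53 mutant, the difference was -0.18 in place of 1.56. Among Aldh1a3-dominant cells of that window, 8 wild-type and 26 mutant, it was -1.17, lower in the mutant. The window holds under 5 wild-type Aldh1a1-dominant cells, so that class could not be compared within it.

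Lypd2 encodes a small protein of the LY6 and PLAUR domain family, held at the surface by a lipid anchor (chromosome 15, 74732247 to 74734329, minus strand). In wild type it was detected in 1 of 14 Aldh1a1-dominant cells, at 21.1 FPKM, and in 13 of 16 Aldh1a3-dominant cells (81.2%, 54.4 to 96.0%), up to 1724 FPKM with a median of 318. In the mutant it was detected in 10 of 41 (24.4%, 12.4 to 40.3%), up to 743 FPKM, and in 25 of 35 (71.4%, 53.7 to 85.4%), up to 1721 FPKM with a median of 128. The relative genotype difference was 1.83 in the first class, where the gene was too scarce to be among those compared, and -1.20 in the second. Without the wild-type cell whose title begins with P9 the second was -0.94, and with log2 of the mean FPKM plus 1 it was -0.71, both under the size of 1. Over Epcam cells the opposite values gave 0.02, from -0.82 to 0.26 over the alternatives.

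Fam132a, called C1qtnf12 in the current annotation, encodes adipolin, a secreted protein of the C1q and TNF related family (chromosome 4, 155962318 to 155966629, plus strand). It was detected in 16 of 16 wild-type Aldh1a3-dominant cells (79.4 to 100%), from 11.1 to 1733 FPKM with a median of 305, and in 32 of 35 mutant ones (91.4%, 76.9 to 98.2%), from 0 to 659 FPKM with a median of 155. In Aldh1a1-dominant cells it was detected in 5 of 14 and 12 of 41, with highest values of 122 and 101 FPKM. Mutant minus wild type, the relative difference was -0.69 in the first class and 0.10 in the second. Its contrast between classes was 5.87 in wild type and 5.08 in the mutant.

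Counted together, 6 of the 10 genes were lower by 1 or more and 1 was higher over Epcam cells, against a background of 5.88% of 7241 compared genes lower, 3.30% higher and 9.18% in either direction. The 6 lower were Agt, Pla2g7, Prss56, Mmp23, Klk10 and Dmkn, and without the wild-type cell titled P9 Dmkn was no longer among them. In Aldh1a1-dominant cells 4 of 9 compared were lower, 3 without the doubtful cells, and 1 higher, against 9.30% and 8.21% of 7470 genes, 17.5% in all. In Aldh1a3-dominant cells 6 of 9 were lower, 5 without the wild-type cell titled P9 as Lypd2 moved to -0.94, and 0 higher, against 12.3% and 8.43% of 7061 genes, 20.7% in all. Their median relative difference was -1.44, -0.29 and -1.72 in the 3 comparisons, where that of all compared genes is 0 by construction. The class comparisons share their cells with the comparison over Epcam cells. Nothing is read from these counts, because the genes were picked with these differences in view. Compared genes are those whose shares of cells at 1 FPKM average 20% or more over both groups, which left out Lypd2 in the first class and Dmkn in the second.

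**Figure D2:**
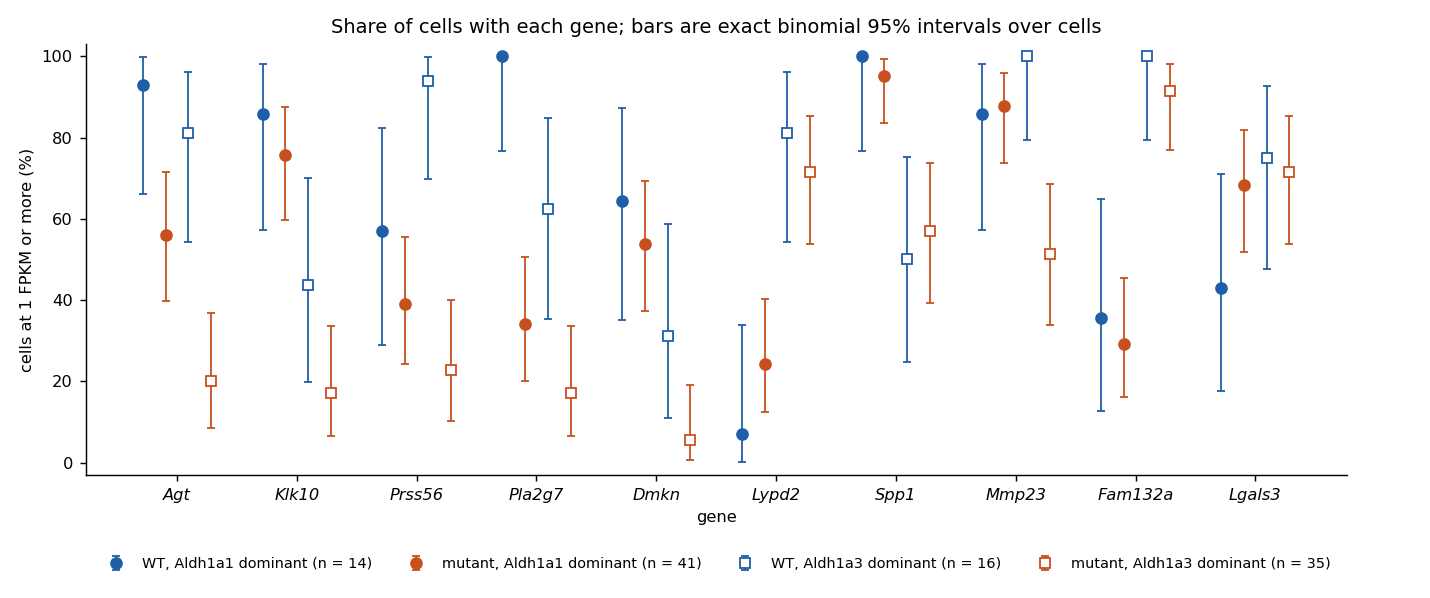
The vertical axis is the percentage of cells at 1 FPKM or more for each gene, with filled circles for Aldh1a1-dominant and open squares for Aldh1a3-dominant cells, wild type (WT) in blue and Sox9 Y440X/+ in orange. For Pla2g7 the wild-type share in Aldh1a1-dominant cells is 100% and the mutant share 34.1%, while for Spp1 the same shares are 100% and 95.1%.

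Between classes of 1 genotype, 9 of 10 genes passed 1 in wild type and 7 of 10 in the mutant. Between genotypes over Epcam cells 7 of 10 did, against a background of 9.18%. The genes were picked with these values in view, so the counts are a description only. In wild type, 5 of 10 were lower in Aldh1a3-dominant than in Aldh1a1-dominant cells by 1 or more and 4 were higher, against 14.3% and 13.4% of 7825 compared genes, 27.8% in all. The relative differences were 6.99 for Lypd2, 5.87 for Fam132a, 4.57 for Prss56 and 2.94 for Lgals3, and -4.73 for Klk10, -3.65 for Spp1, -2.37 for Dmkn, -1.50 for Pla2g7 and -1.23 for Agt. Mmp23 stood at 0.06, and at -1.43 without cells that had mitochondria-rich markers. With log2 of the mean FPKM plus 1, Spp1 stood at -0.62, Dmkn at -0.76, Agt at -0.71 and Pla2g7 at 0.06, all under the size of 1. In the mutant, 5 of 10 were lower, 6 without the doubtful cells as Pla2g7 moved from -0.85 to -1.24, and 2 were higher, against 10.5% and 6.40% of 6823 genes, 16.9% in all. Fam132a stood at 5.08 and Lypd2 at 3.96, and on the other side Spp1 at -4.28, Klk10 at -4.03, Mmp23 at -3.67, Dmkn at -2.83 and Agt at -2.09. Prss56 was at -0.53 and Lgals3 at 0.04. Without the doubtful cells Mmp23 was at -4.06, Klk10 at -4.24, Dmkn at -3.04, Agt at -2.43 and Prss56 at -0.89. The class contrast in the mutant minus that in wild type was -5.10 for Prss56, -3.73 for Mmp23, -3.03 for Lypd2 and -2.90 for Lgals3. With 1 sample per genotype these 4 values could not be tested.

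**Figure D3:**
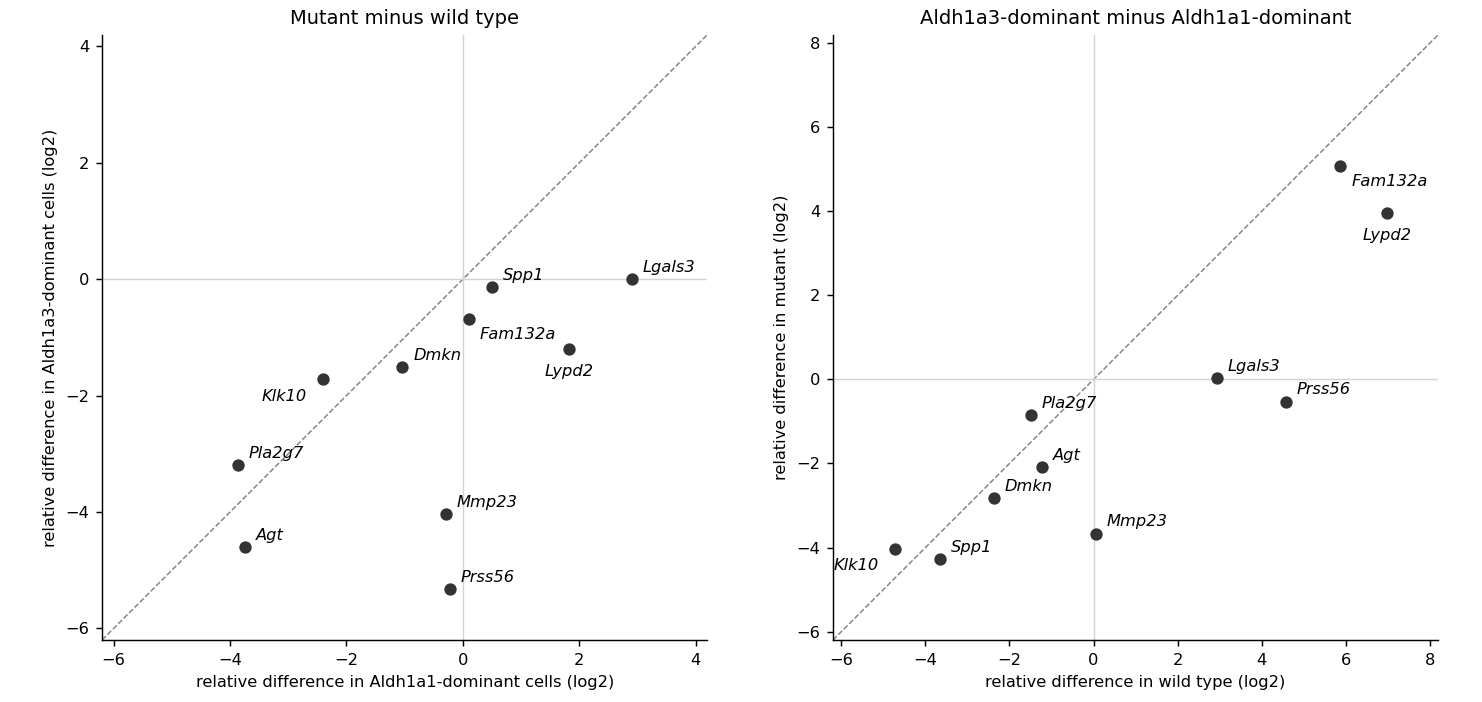
Relative differences in log2 units: on the left mutant minus wild type in Aldh1a1-dominant (horizontal) and Aldh1a3-dominant cells (vertical), on the right Aldh1a3-dominant minus Aldh1a1-dominant cells in wild type (horizontal) and mutant (vertical). Points are the 10 genes and the dashed line marks equal values; Prss56, Mmp23, Lypd2 and Lgals3 lie farthest from it, and the panels are drawn from the same 4 groups of cells.

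Over both classes together some pairs of genes were positively correlated and some negatively. Over the 32 wild-type Epcam cells, 11 of 45 pairs had a Spearman correlation of 0.4 or more and 5 had -0.4 or less, from -0.65 for Klk10 with Lypd2 to 0.72 for Lypd2 with Fam132a. Over the 81 mutant cells 8 pairs were at 0.4 or more and 4 at -0.4 or less, from -0.45 for Klk10 with Fam132a to 0.63 for Klk10 with Dmkn. Within a class, pairs at -0.4 or less numbered 8 in wild-type Aldh1a3-dominant cells and 0 in wild-type Aldh1a1-dominant cells and in both mutant classes. Pairs at 0.4 or more numbered 9 in 14 wild-type Aldh1a1-dominant and 17 in 16 wild-type Aldh1a3-dominant cells. In the mutant they numbered 3 in 41 and 6 in 35 cells, in the same order. The numbers of cells differ and the share over all gene pairs was not computed, so these counts are not compared. Klk10 with Lypd2 was -0.10 and -0.47 in the wild-type classes and -0.08 and 0.32 in the mutant ones, Aldh1a1-dominant first. The 5 pairs at 0.4 or more in both genotypes joined Agt, Klk10, Dmkn and Mmp23, and the 2 at -0.4 or less in both were Fam132a with Klk10 and with Spp1. The correlations over Epcam cells are drawn from cells of unknown depth and mix both classes. The labels name no animal or plate for these cells, so no p is given. The number of the 10 genes detected per cell had a median of 7 (3 to 10) in wild type and 5 (0 to 10) in the mutant, and its correlation with the number of listed genes was 0.02 and 0.25.

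Detection was also compared cell by cell. Mmp23 was found in 30 of all 32 wild-type Epcam cells, so few could lack it. All 21 wild-type cells with Klk10 and all 14 with Dmkn also had Mmp23, as did 39 of 41 and 25 of 25 in the mutant. All 14 wild-type cells with Lypd2 had Fam132a, whereas in the mutant 27 cells had both and 9 had Lypd2 without Fam132a. Within the mutant classes that pair's correlation was 0.04 and -0.03. Klk10 and Spp1 without Fam132a marked 7 of 14 Aldh1a1-dominant cells in wild type and 21 of 41 in the mutant. Among Aldh1a3-dominant cells the counts were 0 of 16, a limit of 18.8%, and 1 of 35. The reverse profile, Fam132a and Lypd2 without Klk10, was found in 9 of 16 and 18 of 35 Aldh1a3-dominant cells, and in 0 of 14 and 0 of 41 Aldh1a1-dominant cells, with limits of 21.4% and 7.32%. These profiles were chosen after the values were seen. Agt, Prss56 and Pla2g7 were all present in 15 of 32 cells of wild type (46.9%, 29.1 to 65.3%) and 10 of 81 of the mutant (12.3%, 6.08 to 21.5%). All 3 were undetected in 1 of 32 and 33 of 81 cells (40.7%, 29.9 to 52.2%), 21 of which were Aldh1a3-dominant.

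**Figure D4:**
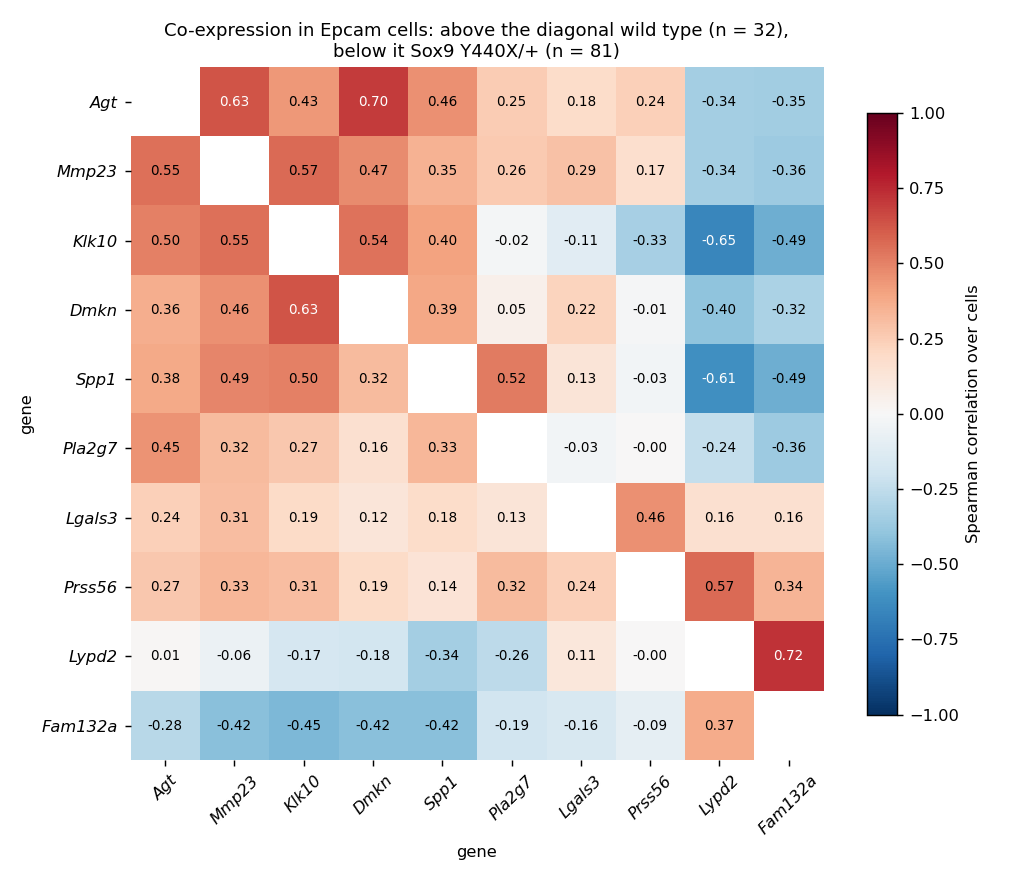
Spearman correlations between the 10 genes over Epcam cells, wild type above the diagonal (32 cells) and Sox9 Y440X/+ below it (81 cells), red for positive and blue for negative. Lypd2 with Fam132a is 0.72 in wild type and 0.37 in the mutant, and Klk10 with Lypd2 is -0.65 and -0.17.

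Cells without Epcam were few and mixed. Of the 12 mutant ones, 9 had 3 or more mesenchymal markers and 1 had Aldh1a3, at 1728 FPKM, and the 1 wild-type one had Aldh1a3 at 74.7 FPKM, so they are not a clean background. In the 12 mutant cells without Epcam, Lypd2, Mmp23 and Fam132a were each detected in 1 cell and the other 7 genes in 0, which allows up to 25% each, and none was detected in the wild-type cell. The values were 87.1 FPKM for Lypd2, 24.9 FPKM for Mmp23 and 339 FPKM for Fam132a.

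The genes whose FPKM was most like each member, by the smaller of its Spearman correlations in both genotypes among 5538 genes ranked, were named by a fixed rule of 3 per gene. For Fam132a the first was Aldh1a3 itself (0.73 in 32 wild-type and 0.70 in 81 mutant cells), followed by the BMP-responsive genes Id3 and Id1. For Dmkn it was the integrin gene Itga4 (0.67 and 0.70), then the transcription factor gene Sp8 and Lurap1l. For Lypd2 they were the secreted WNT modulator gene Sfrp2 (0.62 and 0.49), Igfbp5 and Nedd4. The class I histocompatibility gene H2-D1 was first for Klk10 (0.70 and 0.62) and Mmp23 (0.66 and 0.64), second for Agt and the third for Spp1. Pcolce, an enhancer of procollagen processing, was on the lists of Klk10, Spp1 and Mmp23, with Myl7 beside it for Klk10, Ftl1 for Spp1 and Selm for Mmp23. Agt was most like Mmp23 (0.63 and 0.55), with AU021092 the third. Pla2g7 was most like Tspan7 (0.49 and 0.44), Fbxo30 and Bsg, and Lgals3 like Plekhb1 (0.42 and 0.37), Rpn2 and Wfdc2.

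Oc90, the otoconin gene whose product is a phospholipase-like matrix protein of otoconia, was the first for Prss56 (0.58 and 0.44), before Olfm2 and Wfdc2. Epcam cells with Oc90 numbered 32 of 32 in wild type and 35 of 81 in the mutant. Mutant cells with and without Oc90 had Agt in 62.9% (44.9 to 78.5%) and 26.1% (14.3 to 41.1%), Prss56 in 48.6% and 17.4%, Pla2g7 in 51.4% and 13%, and Mmp23 in 85.7% and 58.7%. Lypd2 went the other way, 37.1% and 50%, as did Fam132a, 45.7% and 63%. The split differs in class, since 22 of 41 Aldh1a1-dominant but 10 of 35 Aldh1a3-dominant mutant cells had Oc90. Within the Aldh1a3-dominant class Lypd2 was in 7 of 10 cells with Oc90 and 18 of 25 without, and Fam132a in 9 and 23, so the contrary shares were not seen there. In the same class Pla2g7 was in 5 of 10 and 1 of 25, Prss56 in 5 and 3, and Agt in 3 and 4. There Mmp23 was in 7 and 11, Klk10 in 2 and 4, Dmkn in 1 and 1, Spp1 in 5 and 15, and Lgals3 in 7 and 18. Within the Aldh1a1-dominant class Agt was in 16 of 22 cells with Oc90 and 7 of 19 without, Prss56 in 11 and 5, and Pla2g7 in 10 and 4. Mmp23 was there in 20 and 16, Klk10 in 19 and 12, Dmkn in 12 and 10, Spp1 in 22 and 17, and Lgals3 in 16 and 12. Listed genes had medians of 4489 and 4398.5 in these cells, and all 4 doubtful cells had Oc90. Without them the shares with Oc90 were 61.3% for Agt, 45.2% for Prss56 and 48.4% for Pla2g7. Epcam cells with Sox10 numbered 26 of 32 in wild type and 10 of 81 in the mutant. Of those 10, 8 had Agt, 7 Prss56 and 7 Pla2g7, but 3 of them are doubtful, and of the other 7 cells 5, 4 and 4 did. Of the 71 mutant Epcam cells without Sox10, 26 had Agt, 18 Prss56 and 17 Pla2g7. Mmp23 was in 9 of 10 and 48 of 71, Spp1 in 9 and 54, Lypd2 in 6 and 30, and Klk10 in 6 and 35. Dmkn was in 4 and 21, Fam132a in 6 and 39, and Lgals3 in 7 and 51. Median listed genes were 4839.5 with Sox10 and 4378 without.

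Relatives of each gene were described from lists of the same family or pathway, over Epcam cells, where 5.88% of all compared genes were lower by 1 or more and 3.30% higher. Of 3 kallikreins compared out of 13, Klk10 and Klk11 (-1.42, found in 65.6% of the cells in wild type and 38.3% in the mutant) were lower by 1 or more, and Klk8 stood at -0.85. In Aldh1a3-dominant cells Klk11 was in 8 of 16 and 3 of 35. Of 8 protease inhibitors and matriptase-type proteases, the membrane protease gene Hpn was lower (-1.79) and the collagen chaperone gene Serpinh1 higher (1.62). Of 6 renin-angiotensin genes, Agt and Mme, the gene of the peptidase neprilysin (-1.59, 78.1% and 43.2%), were lower, and the highest was Lnpep at 0.09. Of 8 phospholipase A2 and platelet-activating factor genes, Pla2g7 alone was lower, and the others ran from Lpcat2 at -0.42 to Pafah1b3 at 0.55.

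Against the same background of 5.88% lower and 3.30% higher, 1 of 4 LY6 and PLAUR domain genes was lower, the complement inhibitor gene Cd59a (-2.01, 65.6% and 19.8%), and the highest was Ly6e at 0.20. None of 7 genes of osteopontin and its receptors passed 1 in either direction, from Itgb6 at -0.42 to Itga5 at 0.38. Of 6 matrix metalloproteinase and inhibitor genes Mmp23 alone was lower, with Timp2 next at -0.99 and Mmp14 highest at 0.37. The 3 C1q and TNF related genes stood between C1qtnf4 at -0.98 and C1qtnf6 at -0.42. Of 5 galectin genes Lgals3 alone was higher, and the lowest was Lgals3bp at -0.72. Sbsn, whose gene neighbours Dmkn in the stratified epithelium secreted complex, stood at 0.03. Of 2 inner ear matrix genes Oc90 was lower (-6.83) and Sparc was at -0.76.

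Counts over the lists differed by class. In Aldh1a1-dominant cells, with backgrounds of 9.30% lower and 8.21% higher, 3 of 5 galectin genes were higher, Lgals3, Lgals1 (1.43) and Lgals8 (1.38), and of 4 LY6 genes 2 were higher and 1 lower. In Aldh1a3-dominant cells, with backgrounds of 12.3% and 8.43%, 3 of 3 kallikreins, 3 of 6 renin-angiotensin genes, 3 of 5 LY6 genes and 2 of 3 C1q and TNF related genes were lower, and none of them higher. The last were C1qtnf4 (-2.24) and C1qtnf6 (-1.22), and the LY6 genes were Cd59a (-2.64), Ly6a (-2.28) and Lypd2. These counts include Lgals3 in the first class and Klk10, Agt and Lypd2 in the second. Those genes were picked with their differences in view, so nothing is read from the counts beside the backgrounds. That the classes differ was not tested.

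Genes of the secretory pathway were compared as a measure of the export route, 30 of 30. Of these, 5 were lower by 1 or more, beside the 5.88% over all compared genes, and 0 were higher. They were the signal peptidase genes Sec11c (-1.79) and Spcs1 (-1.61), the coatomer gene Copa (-1.49), the translocon-associated Ssr4 (-1.37) and the translocon gene Sec61b (-1.11), and the highest was Sec61a1 at 0.96. Aldh1a1-dominant cells with Sec11c numbered 14 of 14 in wild type and 20 of 41 in the mutant, and Aldh1a3-dominant ones 4 of 16 and 6 of 35. The list's median was -0.36. In Aldh1a1-dominant cells 8 of the 30 were lower and 1 higher, beside 9.30% and 8.21% of all compared genes. In Aldh1a3-dominant cells 6 were lower and 3 higher, beside 12.3% and 8.43%. The lists were assembled with the genes' own differences known, and no test over a list was made.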

How the data were processed

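Cells of mouse endolymphatic sacs were profiled by Smart-seq2, per the labels. The authors deposited 1 table of FPKM values, genes in rows and cells in columns. HISAT2, SAMtools 0.1.18, Cufflinks, HTSeq and the build mm10 are named without role or order, per the submitters' processing notes. No source used here gives the strand setting, annotation release or read filters. FPKM keeps no read number, so depth is unknown and genes listed above 0 stand in for it. The 49 gene identifiers with several rows were summed.

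Each genotype is 1 sample, so no test was made. A level is the mean log2(FPKM + 1) over the cells of a group, with its SD. This scale can understate differences of scarce genes and enlarge those of genes at 0 in many cells of 1 group. Dmkn in Aldh1a3-dominant cells was -1.51, against -4.04 with log2 of the mean FPKM plus 1. Agt over Epcam cells was -3.76, against -2.50. Shares have exact Clopper-Pearson 95% intervals, and for a count of 0 the limit is 3 counts of the total. Both cover counting error only. Genes were compared where the mean of both groups' shares at 1 FPKM was 20% or more, and a difference of 1 on the log2 scale, relative to the median over compared genes, was the size counted. A dominant gene is the higher of Aldh1a1 and Aldh1a3, at 1 FPKM or more. Doublets were not called, since that needs counts.

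The members and lists were chosen with earlier results of these data known. The genes named are all 10 members, the highest, lowest and counted genes of each list, and the 3 genes most like each member. The last were sought without predicted genes, pseudogenes, mitochondrial and Y-linked rows, Xist and Tsix. Other X-linked genes were kept, and Tspan7 lies on the X chromosome. A gene outside this rule is named only where its count is given. The calculations were tested on simulated data and run in Python 3.11.15 with numpy 2.4.6, pandas 2.3.3, scipy 1.17.1 and matplotlib 3.10.9. Gene positions are those of the table, counted from 1, and were the same in GENCODE vM21 for all 10. Promoter sequences are from RefSeq. Alternatives changed the pseudocount, the filter, the scaling, the detection threshold, the dominance rule and the cells kept.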

Additional observations from a re-analysis of the deposited data

How the results depend on the processing

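No paired analysis was possible because the replicate numbers only list cells in accession order, pair none of them, and no test was made. Counts of genes past 1 between genotypes were 7 of 10, 5 of 9 and 6 of 9 compared (Epcam, Aldh1a1-dominant and Aldh1a3-dominant cells). The shares over all compared genes were 9.18%, 17.5% and 20.7%. Between classes the counts were 9 and 7 of 10 (wild type and mutant), beside 27.8% and 16.9%. Pairs at 0.4 or more were 11 and 8. Over 99 recomputed counts, 97 stayed within 1.5 times. The exceptions were the class count in wild type and the wild-type pairs. The first was 5 with log2 of the mean FPKM plus 1, beside 29.3% of all compared genes. The second was 7 without cells above 6000 listed genes. Of 36 gene differences past 1, 2 changed direction, Pla2g7 between wild-type classes, 0.06 with log2 of the mean FPKM plus 1, and Lgals3 between genotypes over Epcam cells, -0.18 among cells with 3000 to 5000 listed genes. In all, 10 of the 36 fell under 1 in at least 1 alternative, 7 of them with log2 of the mean. Of 14 differences under 1, 9 changed sign in at least 1 alternative, so their direction is not settled. The cause was not tested. Agt, Klk10, Prss56 and Pla2g7 were lower by 1 or more over Epcam cells under all 15 alternatives run, Mmp23 under 14 and Dmkn under 11. The Aldh1a1-dominant genotype comparison and the wild-type class comparison were not run in the window of 3000 to 5000 listed genes, which leaves under 5 wild-type Aldh1a1-dominant cells. Depth is unknown, so a gene at 0 may be present below capture, and the 14 and 16 wild-type cells per class limit precision.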
